A study of Mus musculus with 6 samples.

Results

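The macrophage and Kupffer cell genes described here are 31 genes that mark the tissue macrophages of the liver, resident or recruited, out of 23474 genes in an expression table of mouse liver. They were taken by gene symbol, and all 31 were found in the table. The samples are livers of male C57BL/6J mice aged 17 weeks. The HFD group had eaten a high-fat diet for 12 weeks, starting at 5 weeks of age, and the BT group the same diet with Bangpungtongseong-san extract, an oriental herbal medicine, mixed in at 1.5% by weight. Both groups are thus obese-diet groups, and mice on normal chow are not analysed here. Each diet has 3 libraries. Whether these stand for single mice or for pooled mice is not stated, and p-values measure only the spread between these libraries. Liver identity was checked on hepatocyte markers: Ttr, the thyroxine carrier transthyretin, was at 3003 to 5937 FPKM in all 6 libraries, though lower with BT (-0.76 ± 0.14, limma adjusted p = 0.0157, and up to 0.0823 with 1 library left out).

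Kupffer cells are the macrophages that live in the liver sinusoids, where they clear bacteria, old red cells and dead cells from the blood. They depend on the growth factor receptor encoded by Csf1r, and in mice they carry the lectin Clec4f and, when long-lived, the phosphatidylserine receptor Timd4. In a fatty liver, blood monocytes can enter and become macrophages that lack these marks and carry Itgam, Itgax, Trem2 or Gpnmb instead, which is why the resident and the recruited markers are set against each other below.

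Expression is in FPKM, in which fragment counts are divided by the length of the transcript and by the depth of the library. A rough estimate from the lowest values puts that depth at 13.8 to 15.8 M fragments. Genes averaging 1 FPKM or more were tested on the log2(FPKM + 1) scale with limma, a linear model with a shared variance estimate, and a gene is said to rise or fall where its Benjamini-Hochberg adjusted p over all 10476 genes tested was under 0.05. Changes are BT minus HFD. On this scale the change of a low gene is understated. Between the diets 13.3% of the genes tested differed, 630 of them higher and 768 lower with BT, or 448 and 884 with median-of-ratios scaling. The submitters' library codes differ between the diets, so sets of libraries handled apart, if there were any, and diet cannot be told apart.

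Of the 31 genes, 26 passed the filter on low values and 1 of them changed: Ccl9, a CC chemokine gene, was higher with BT. That is 3.85% of the 26, beside 13.3% among all genes tested, of which 6.01% were higher and 7.33% lower. The median change of the 26 was -0.05, with 12 positive and 14 negative, beside a median of 0.07 over all genes tested. In 4 of the 26 the BT values lay wholly above the HFD values and in none wholly below, beside 23.2% and 16.1% of all genes tested, or 39.3% in either direction. An unadjusted p under 0.05 was found for 4 of the 26 (Ccl9, Cd5l, Csf1r and Timd4), beside 32.4% of all genes tested. RNA of whole liver was measured, so fewer cells of a type and less RNA per cell cannot be told apart.

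**Figure D1:**
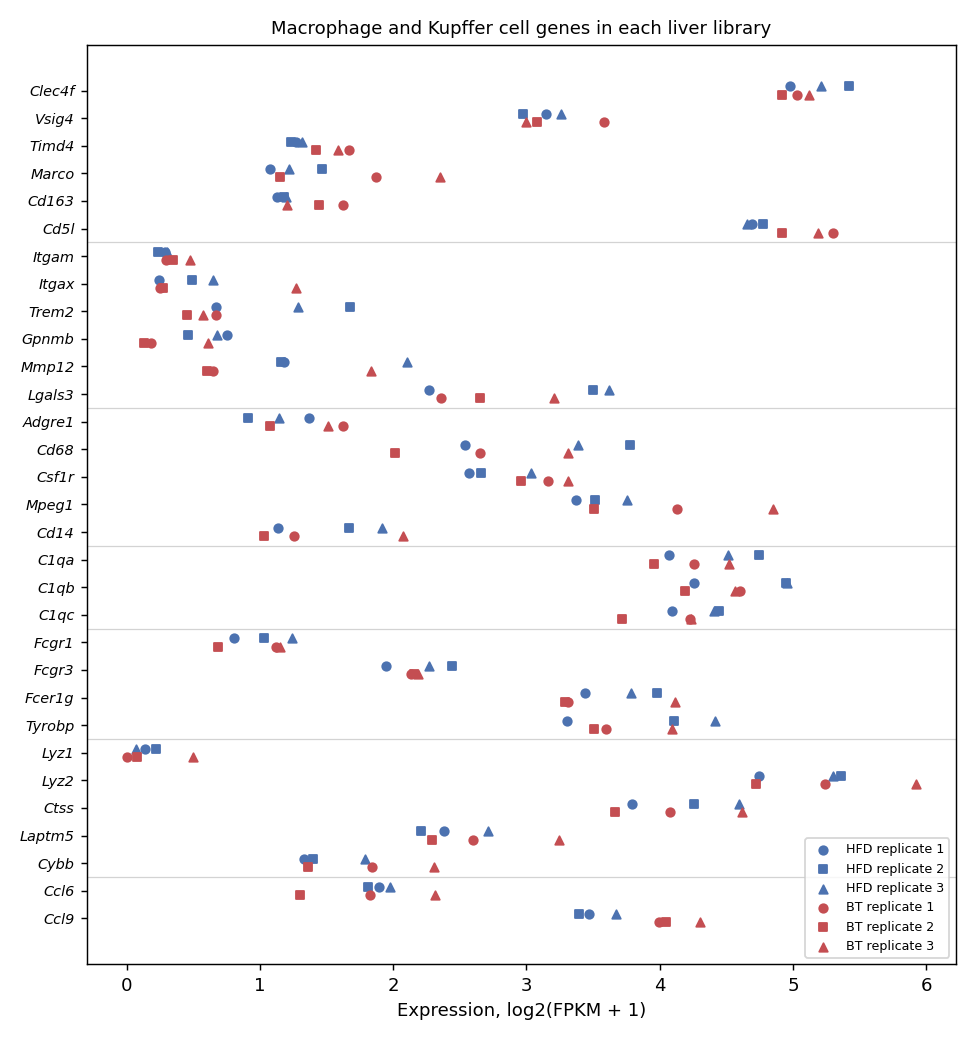
Expression of the 31 genes in each library, as log2(FPKM + 1) on the horizontal axis; each row is a gene, lines separate the roles, blue marks are HFD and red marks BT, with a shape for each replicate. The values of the diets overlap in most rows; Ccl9, in the last row, is among the few where they do not.

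Ccl9 encodes a secreted chemokine of the CC family that attracts myeloid cells, and it lies on chromosome 11 (83572919 to 83578636, GRCm38, a protein-coding gene), next to its relative Ccl6 at a distance of 9.2 kb. Its level was 10.1, 9.53 and 11.7 FPKM in HFD replicates 1 to 3 and 15.0, 15.6 and 18.8 FPKM in BT replicates 1 to 3. Every BT library was above every HFD library. The means were 10.5 ± 1.15 and 16.4 ± 2.05 FPKM (SD, n = 3 each), a ratio of 1.57 and a change of 0.60 ± 0.13 (SE) with an adjusted p of 0.0227 by limma. The call was lost without HFD replicate 2 and without any of the BT replicates, at limma adjusted p-values of 0.0626 to 0.0685 and changes of 0.51 to 0.66. It was also lost, at an adjusted p of 0.0549, when all genes with any value above 0 were tested by limma.

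Ccl6 encodes a chemokine of the same family. It stood at 2.71, 2.51 and 2.93 FPKM with HFD and at 2.54, 1.47 and 3.98 FPKM with BT. Its BT values spread to both sides of the HFD values (change -0.08 ± 0.23, limma adjusted p = 0.834), and the change was 0.09 once the length and GC trend of each library was removed. The difference between the changes of the neighbours was not tested.

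The 250 bases before the annotated start are shown for Ccl9 and Ccl6, as neighbours of which only Ccl9 passed the test, and for Cd5l and Timd4, the resident genes with the smallest p. All are from RefSeq (GRCm38.p6) and read along the gene's strand: chr11:83578637-83578886 (minus) for Ccl9, chr11:83593088-83593337 (minus) for Ccl6, chr3:87357631-87357880 (plus) for Cd5l and chr11:46810549-46810798 (plus) for Timd4. Capitals mark GGAAGT or GAGGAAG on either strand, letters of the kind bound by the ETS factors, among which PU.1 is the myeloid one.
Ccl9: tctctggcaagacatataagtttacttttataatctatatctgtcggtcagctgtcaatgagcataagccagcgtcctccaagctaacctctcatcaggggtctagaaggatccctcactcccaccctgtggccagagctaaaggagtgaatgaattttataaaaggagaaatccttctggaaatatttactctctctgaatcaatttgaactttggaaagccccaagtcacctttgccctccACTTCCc
Ccl6: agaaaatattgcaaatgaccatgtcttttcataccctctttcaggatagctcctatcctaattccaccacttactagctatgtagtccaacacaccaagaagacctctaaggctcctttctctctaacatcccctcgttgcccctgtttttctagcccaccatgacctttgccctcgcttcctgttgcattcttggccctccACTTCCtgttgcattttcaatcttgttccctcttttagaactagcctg
Cd5l: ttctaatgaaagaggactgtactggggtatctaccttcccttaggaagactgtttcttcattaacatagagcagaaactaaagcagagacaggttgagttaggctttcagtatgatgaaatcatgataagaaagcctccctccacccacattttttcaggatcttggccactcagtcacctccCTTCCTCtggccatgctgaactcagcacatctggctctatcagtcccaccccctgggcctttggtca
Timd4: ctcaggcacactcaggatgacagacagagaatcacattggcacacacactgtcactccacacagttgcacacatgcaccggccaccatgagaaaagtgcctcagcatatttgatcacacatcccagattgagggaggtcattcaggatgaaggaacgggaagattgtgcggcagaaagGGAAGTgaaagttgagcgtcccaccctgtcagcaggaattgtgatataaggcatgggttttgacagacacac
Counted back from the start, the marked letters begin at base -7 in Ccl9, -48 in Ccl6, -67 in Cd5l and -72 in Timd4. The longest run of letters that the Ccl9 and Ccl6 stretches share is 13 bases, gccctccacttcc, and it holds the marked letters of both.

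Of the 31 genes, 26 have a window of 300 bases around the start in that table. Among these 26 the letters GGAAGT occur on either strand in 15, or 57.7%, beside 26.5% of all 27025 genes with a window. GAGGAAG occurs in 10 of the 26 (38.5%, beside 15.4%), and GAGGAAGT, which holds both shorter motifs, in 3 (11.5%, beside 3.69%), which are Mmp12, C1qc and Ctss. CACGTG, which reads the same on both strands, occurs in 0 of the 26, beside 8.09%. These are counts of letters and not of bound sites.

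The 6 resident Kupffer cell markers were all measured and tested, and none passed the test. An unadjusted p under 0.05 was found for 2 of the 6, near the 32.4% among all genes tested. Their median change was 0.27, with 5 positive and 1 negative, and 3 of the 6 had BT values wholly above the HFD values (23.2% among all genes tested). With a pseudocount of 0.1 in place of 1 the median was 0.42.

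Cd5l encodes a protein that macrophages secrete and that protects them from cell death. Its level was 24.8, 26.4 and 24.2 FPKM with HFD and 38.5, 29.2 and 35.5 FPKM with BT, so that the groups did not overlap. The change was 0.43 ± 0.12 with a limma adjusted p of 0.0503, just outside the threshold. It passed when only genes averaging 5 FPKM or more were tested, with libraries rescaled to the same sum, with quantile normalization, with robust variances, and after removal of the length and GC trend. In the last of these the change was 0.51 (limma adjusted p = 0.0377). It missed with a pseudocount of 0.1 and with no variance trend (limma adjusted p = 0.0515 and 0.0603). It also missed with median-of-ratios scaling (a change of 0.36), with no filter and with array weights. No fit with 1 library left out passed (limma adjusted p = 0.0584 to 0.184).

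Timd4, the phosphatidylserine receptor, stood at 1.41, 1.35 and 1.49 FPKM with HFD and at 2.19, 1.68 and 2.00 FPKM with BT, again without overlap (0.29 ± 0.12, limma adjusted p = 0.145). Cd163, the receptor for haemoglobin bound to haptoglobin, was at 1.19, 1.26 and 1.29 FPKM and at 2.09, 1.72 and 1.30 FPKM (0.26 ± 0.14, limma adjusted p = 0.240). BT replicate 3 lay only just above the highest HFD library. Marco, a scavenger receptor that binds bacteria, was at 1.11, 1.76 and 1.33 FPKM with HFD and at 2.65, 1.21 and 4.12 FPKM with BT. Its BT libraries spread over a wide range that overlaps the HFD values (0.54 ± 0.28, limma adjusted p = 0.212), and the change was 0.25 without BT replicate 3.

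Clec4f, the lectin found on Kupffer cells and on hardly any other mouse cell, was among the most highly expressed of the 31 genes. It stood at 30.5, 41.8 and 36.1 FPKM with HFD and at 31.8, 29.2 and 33.9 FPKM with BT. The groups overlapped, and it was the resident marker with a negative change (-0.18 ± 0.13, limma adjusted p = 0.370). Vsig4, the complement receptor with which Kupffer cells capture opsonised bacteria, was at 7.88, 6.87 and 8.60 FPKM and at 11.0, 7.44 and 6.98 FPKM. Its highest value was in BT replicate 1 and the other BT libraries lay within the HFD range (0.09 ± 0.17, limma adjusted p = 0.739).

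The recruited and lipid-associated macrophage markers were low, and 2 of the 6 passed the filter. Neither passed the test, and their changes were -0.45 and -0.39. Mmp12, macrophage elastase, was at 1.27, 1.23 and 3.30 FPKM with HFD and at 0.568, 0.517 and 2.57 FPKM with BT (-0.45 ± 0.37, limma adjusted p = 0.420). In each diet replicate 3 was far above the other libraries. Lgals3, which encodes the sugar-binding protein galectin-3, was at 3.83, 10.3 and 11.3 FPKM and at 4.14, 5.28 and 8.23 FPKM (-0.39 ± 0.35, limma adjusted p = 0.472). HFD replicate 1 was the lowest of all 6 libraries for it, and the BT values lay within the HFD range.

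The other recruited markers had means under 1 FPKM and were not tested beside the rest. Trem2, a lipid-sensing receptor of macrophages in fatty tissue, was at 0.592, 2.19 and 1.44 FPKM with HFD and at 0.591, 0.366 and 0.488 FPKM with BT. Its groups do not overlap, but HFD replicate 1 and BT replicate 1 are almost equal, and the ratio of the means was 0.342. When all genes above 0 were tested by limma its adjusted p was 0.179 (-0.65). Gpnmb, a membrane glycoprotein of lipid-laden macrophages, was at 0.688, 0.372 and 0.600 FPKM and at 0.135, 0.0961 and 0.528 FPKM, which overlap. Itgax, which encodes the integrin CD11c, was at 0.185, 0.403 and 0.565 FPKM and at 0.189, 0.207 and 1.42 FPKM, with its highest value in BT replicate 3. Itgam, which encodes CD11b, was at 0.178 to 0.236 FPKM with HFD and 0.228 to 0.392 FPKM with BT, and is uncertain since exons of the gene model Gm49368 cover 68.7% of its exon bases. At the estimated depth the lowest values of Itgax, Gpnmb and Itgam stand for about 11.0, 5.4 and 11.5 fragments, so counting error is large.

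Set side by side, the resident markers had a median change of 0.27 and the recruited markers -0.42, or -0.36 over all 6 recruited markers without the filter. Without the filter Itgam and Itgax had positive changes (0.10 and 0.14) and the other recruited markers negative ones. The recruited median rests on Mmp12 and Lgals3 and moved to -0.14 without HFD replicate 3 and to -0.74 when BT replicate 3 was left out. The resident median was 0.09 over the 3 markers that averaged 5 FPKM or more. Averaged as log2(FPKM + 1), the resident markers stood at 2.79 ± 0.07 with HFD and 3.03 ± 0.19 with BT (SD over 3 libraries). The recruited markers stood at 1.20 ± 0.27 and 0.94 ± 0.34. Summed, the resident markers reached 66.9, 79.4 and 73.0 FPKM in the HFD libraries and 88.1, 70.4 and 83.8 FPKM in the BT libraries. The recruited markers reached 6.78, 14.7 and 17.4 FPKM and 5.85, 6.74 and 13.6 FPKM. Both pairs of sums overlap between the diets, and the difference between the resident and the recruited change was not tested.

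**Figure D2:**
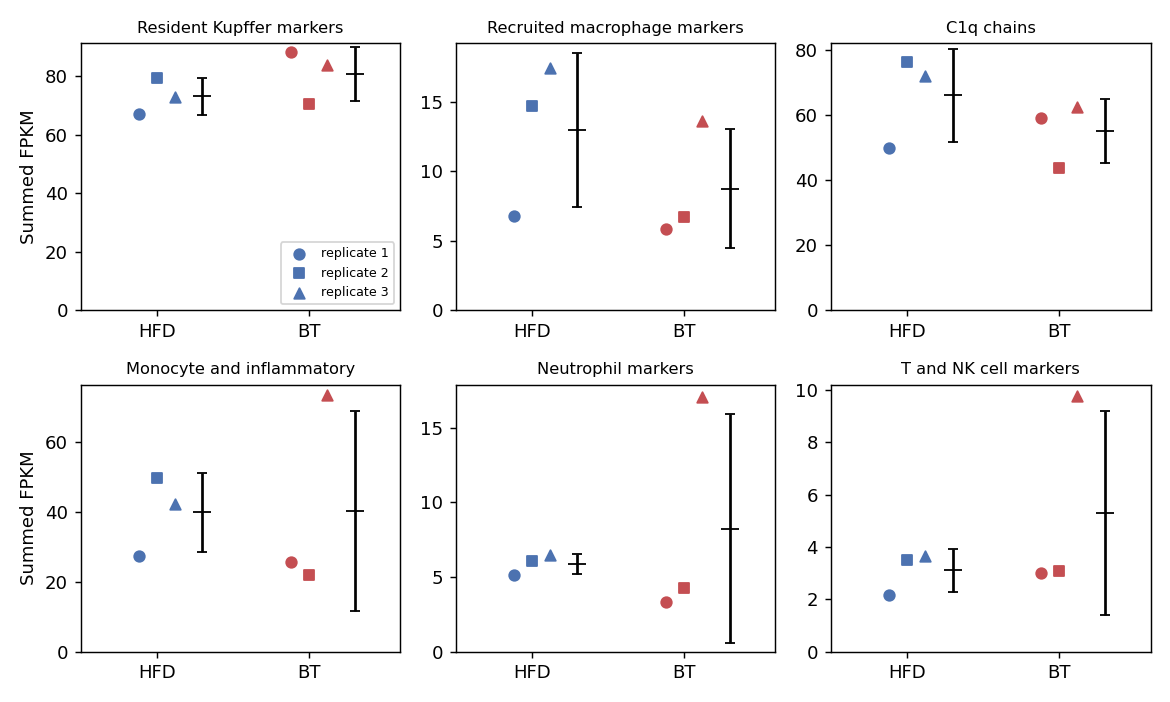
Summed FPKM of gene lists (vertical axes, from 0) in each HFD and BT library, with a shape for each replicate and the mean ± SD of 3 libraries as a black bar. BT replicate 3, a red triangle, is the highest of all 6 libraries for monocyte and inflammatory genes (73.4 FPKM), neutrophil markers (17.1 FPKM) and T and NK cell markers (9.78 FPKM), but not for resident or recruited macrophage markers or C1q chains.

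Among the 5 pan-macrophage genes none passed the test. Csf1r, the receptor for the macrophage growth factors CSF1 and IL-34, was at 4.92, 5.32 and 7.18 FPKM with HFD and at 7.93, 6.78 and 8.93 FPKM with BT. HFD replicate 3 reached into the BT range (0.39 ± 0.16, limma adjusted p = 0.124), and without that library Csf1r passed the test (0.53, limma adjusted p = 0.0472). With any other library left out it missed, at changes of 0.30 to 0.48 (limma adjusted p = 0.146 to 0.308). Exons of Hmgxb3 cover 15.1% of the exon bases of Csf1r. Mpeg1, which encodes the pore-forming protein perforin-2, was at 9.38, 10.4 and 12.5 FPKM and at 16.5, 10.3 and 27.9 FPKM. BT replicate 3 was more than any other library and BT replicate 2 was within the HFD range (0.61 ± 0.29, limma adjusted p = 0.183), and the change was 0.27 without BT replicate 3. Adgre1, which encodes the F4/80 antigen, was at 1.58, 0.876 and 1.21 FPKM and at 2.08, 1.11 and 1.85 FPKM (0.26 ± 0.18, limma adjusted p = 0.351).

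Cd68, a glycoprotein of macrophage lysosomes, went the other way at 4.81, 12.7 and 9.46 FPKM with HFD and 5.30, 3.03 and 8.91 FPKM with BT, with overlap (-0.58 ± 0.37, limma adjusted p = 0.312). Cd14, the co-receptor for bacterial lipopolysaccharide, was at 1.19 to 2.77 FPKM and at 1.04 to 3.21 FPKM (-0.12 ± 0.29, limma adjusted p = 0.800).

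The complement genes C1qa, C1qb and C1qc lie side by side on chromosome 4 and encode the chains of C1q, which opens the classical complement pathway and in the liver comes mainly from Kupffer cells. None passed the test. C1qa was at 15.8, 25.8 and 21.8 FPKM with HFD and at 18.1, 14.5 and 21.9 FPKM with BT. C1qb was at 18.1, 29.9 and 30.0 FPKM and at 23.3, 17.2 and 22.7 FPKM, and C1qc at 16.1, 20.7 and 20.2 FPKM and at 17.7, 12.1 and 17.8 FPKM. In each of the 3 genes HFD replicate 1 was the lowest HFD library and BT replicate 2 the lowest BT library. Their changes were -0.20, -0.27 and -0.25 (limma adjusted p = 0.320 to 0.512), and 0.17, 0.04 and 0.03 once the length and GC trend was removed.

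The Fc receptor genes, which pass signals from bound antibody into the cell, and the adaptor genes Fcer1g and Tyrobp did not pass the test in 4 of 4. Fcer1g, the shared gamma chain, was at 9.85, 14.8 and 12.8 FPKM with HFD and at 8.93, 8.77 and 16.3 FPKM with BT. Tyrobp, the adaptor of TREM2 also known as DAP12, was at 8.86, 16.3 and 20.4 FPKM and at 11.1, 10.4 and 16.0 FPKM. Fcgr3, a receptor for IgG complexes, was at 2.85 to 4.43 FPKM and at 3.38 to 3.55 FPKM, and Fcgr1, the high-affinity IgG receptor, at 0.746 to 1.36 FPKM and at 0.610 to 1.22 FPKM. All of these ranges overlap. The changes of the 4 genes lay between -0.21 and -0.04 (limma adjusted p = 0.622 to 0.895), and those of Fcer1g, Tyrobp and Fcgr3 became 0.19, 0.14 and 0.16 without the length and GC trend.

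Of the 5 phagosome and lysosome genes, 4 were tested and none passed. Lyz2, the lysozyme of myeloid cells, had the highest single value of the 31 genes. It was at 25.8, 40.1 and 38.3 FPKM with HFD and at 36.8, 25.4 and 59.7 FPKM with BT (0.16 ± 0.29, limma adjusted p = 0.721). Lyz1, its close copy in the next gene, which is used by Paneth cells of the gut, was at 0.0497 to 0.167 FPKM with HFD, was listed at 0 in BT replicate 1 and was at 0.0545 and 0.415 FPKM in the other BT libraries. Fragments of the near-identical copies may be split between them, so both are uncertain. Ctss, which encodes the protease cathepsin S, was at 12.9, 18.1 and 23.2 FPKM and at 15.9, 11.7 and 23.5 FPKM (-0.10 ± 0.26, limma adjusted p = 0.821). Laptm5, a lysosomal membrane protein of blood cells, changed by 0.28 ± 0.24 and Cybb, the catalytic subunit of the phagocyte NADPH oxidase, by 0.33 ± 0.24 (limma adjusted p = 0.448 and 0.365). Laptm5 was highest in BT replicate 3, at 8.46 FPKM, beside 3.62 to 5.56 FPKM elsewhere. Cybb was highest there too, at 3.93 FPKM beside 1.52 to 2.58 FPKM.

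**Figure D3:**
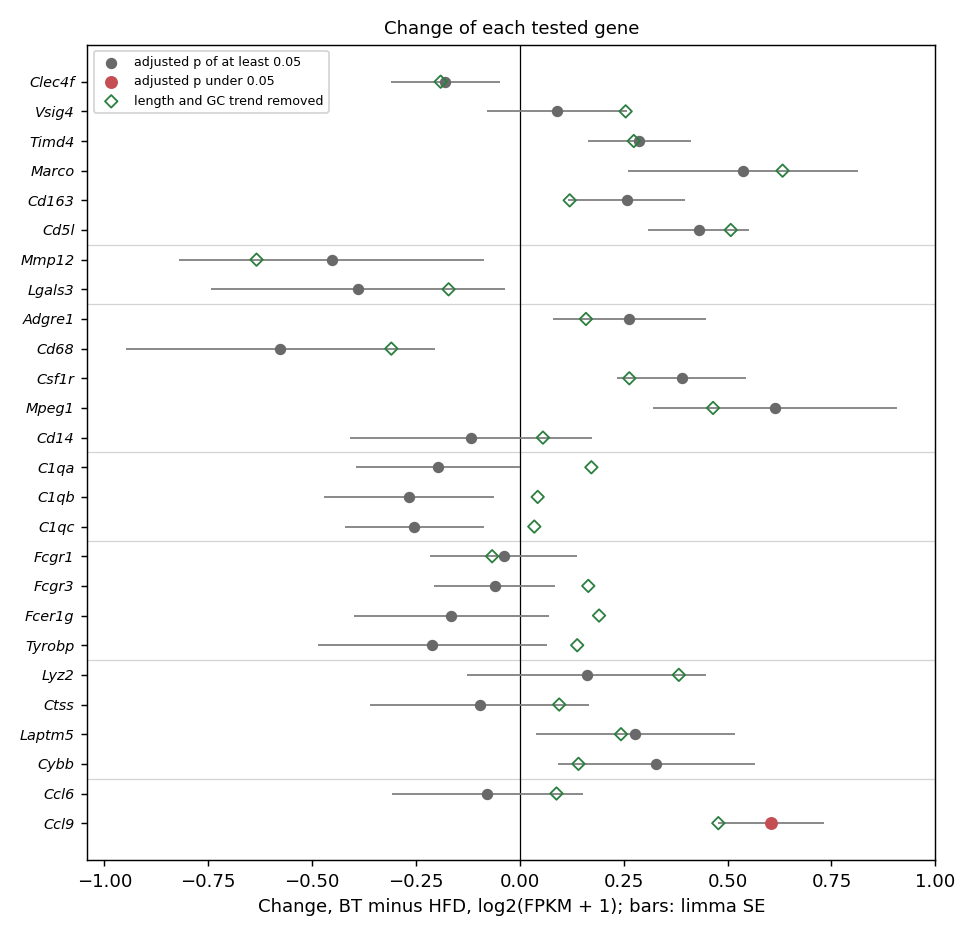
Change of each of the 26 tested genes (filled circles, horizontal axis, BT minus HFD in log2(FPKM + 1), bars are limma's SE) and the change with each library's length and GC trend removed (open green diamonds). Ccl9, in red, is the gene past the threshold; the diamonds of the C1q and Fc receptor genes other than Fcgr1 lie to the right of 0 while their circles lie to the left.

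Libraries of the same diet also differed from each other in these genes. Within BT, replicate 3 had the highest value in 24 of the 31 genes (77.4%) and replicate 2 the lowest in 23 (74.2%). Over all genes tested BT replicate 3 was the highest BT library in 48.1% and BT replicate 2 the lowest in 35.6%. Within HFD, replicate 1 had the lowest value in 20 of the 31 (64.5%), beside 35.0% over all genes tested. The resident markers departed from this in the highest BT library, which was replicate 1 in 4 of the 6 and replicate 3 in 2. In the lowest libraries they did not: BT replicate 2 was the lowest BT library in 4 of the 6, and HFD replicate 1 the lowest HFD library in 3.

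**Figure D4:**
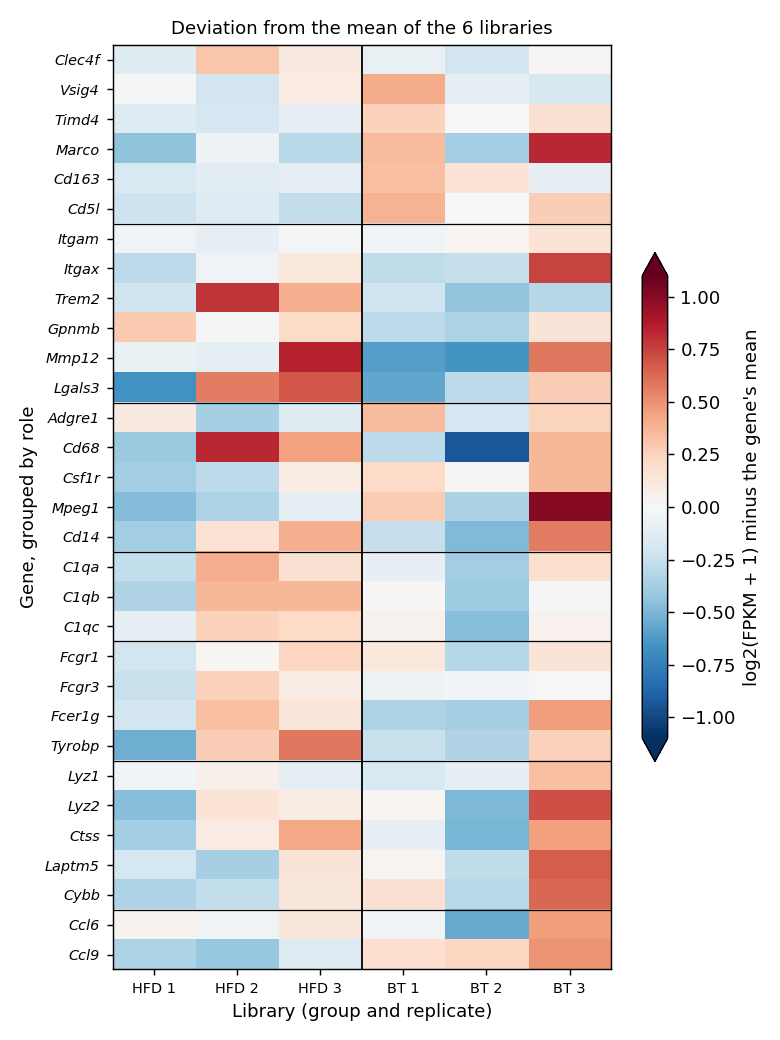
Deviation of each gene from its own mean over the 6 libraries (colour, log2(FPKM + 1), red above and blue below the mean); rows are genes grouped by role and columns are libraries. BT 3 is red in most rows from Mpeg1 down and BT 2 is blue in most, while HFD 1 is blue in most rows of the C1q, Fc receptor and lysosome groups.

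Markers of several other blood cells, though not of all, were highest in BT replicate 3. The 16 monocyte and inflammatory genes all had their highest BT value there, and summed they reached 73.4 FPKM beside 25.6 and 21.8 FPKM in BT replicates 1 and 2 and 27.5 to 49.8 FPKM in the HFD libraries. Ccr2, the receptor that brings monocytes into tissue, was at 3.37 FPKM in BT replicate 3 and at 0.681 and 0.702 FPKM in the other BT libraries. The 7 neutrophil markers summed to 17.1 FPKM in BT replicate 3 and to 3.35 to 6.47 FPKM in the other 5 libraries, and Ly6g, which defines neutrophils, was listed at 0 in all 6. The 9 T and NK cell markers summed to 9.78 FPKM there and to 2.15 to 3.65 FPKM elsewhere. B cell markers summed to 9.66 to 14.0 FPKM with HFD and 9.51 to 11.3 FPKM with BT, with Ms4a1 listed at 0 in all 6. The 7 dendritic cell markers summed to 3.54 to 4.92 FPKM with HFD and to 4.46 to 7.18 FPKM with BT. Red blood cell markers went the other way, with their lowest sum in BT replicate 3, at 119 FPKM beside 196 to 418 FPKM elsewhere. The part of these cells in the values of the 31 genes was not tested. Without BT replicate 3 none of the 26 genes passed limma's test, beside 589 of all 10476 genes tested, and Ccl9 stood at 0.51. The same held without BT replicate 1, BT replicate 2 or HFD replicate 2: none of the 26 passed, beside 173, 324 and 621 of all genes.

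Among further genes fixed as lists for this tissue, the 13 other Kupffer cell genes gave 12 tested, 1 higher and none lower, with a median change of -0.02. That is 8.33% of the 12, beside 13.3% of all genes tested. The gene that rose was Slc40a1, the iron exporter ferroportin, which macrophages use to return iron from old red cells and which hepatocytes also express. It was at 27.6, 23.5 and 31.7 FPKM with HFD and at 39.8, 35.8 and 45.1 FPKM with BT (0.53 ± 0.14, limma adjusted p = 0.0402), with no overlap, and its limma adjusted p reached 0.125 when 1 library was left out. Siglec1, a sialic acid receptor of macrophages, differed by 0.34 (limma adjusted p = 0.116).

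Of 16 genes for the ligands, transcription factors and kinases around the CSF1 receptor, 11 were tested, with 1 lower and none higher (9.09%, beside 13.3% of all genes tested, median 0.03), and Irf8 is not analysed here. The ligand genes Csf1 and Il34 differed by 0.01 and -0.22, and Spi1, which encodes PU.1, by 0.03 (limma adjusted p = 0.513 to 0.958). The gene that fell was Cebpb, a transcription factor that hepatocytes express as well, from 28.8 ± 6.72 to 11.3 ± 0.268 FPKM (SD, n = 3 each, -1.25 ± 0.15, limma adjusted p = 0.00561). With the length and GC trend removed it missed the threshold (-0.62, limma adjusted p = 0.0758), and exons of other genes cover 20.7% of its exon bases.

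The 13 further genes of lipid-associated macrophages were all tested, and 4 fell and none rose, with a median of -0.31 and 12 negative, beside 7.33% of all genes lower and a median of 0.07. These were Cd63 and Cd9, tetraspanins of endosomes and of the cell surface, Fabp5, a fatty acid-binding protein, and Anxa5, a phosphatidylserine-binding annexin. None of the 4 is restricted to macrophages, and hepatocytes or other liver cells also express them. Fabp5 was at 14.7, 14.3 and 19.4 FPKM with HFD and at 5.95, 8.23 and 6.94 FPKM with BT (-1.09 ± 0.15, limma adjusted p = 0.00808). Cd63 was at 10.1, 20.0 and 24.1 FPKM and at 5.07, 6.12 and 8.44 FPKM (-1.28 ± 0.29, limma adjusted p = 0.0288). Cd9 fell by 1.11 and Anxa5 by 0.73, and both missed the threshold without the length and GC trend, at -0.89 and -0.58 (limma adjusted p = 0.0599 and 0.0730). There Ctsl, the protease cathepsin L, passed instead (-0.55, limma adjusted p = 0.0330), so that 3 of the 13 were called. Over all genes 949 of 10403 were called in that setting, 550 of them lower. Exons of other genes cover 26.8% of the exon bases of Ctsl, 18.8% of those of Spp1 and 10.7% of those of Cd9. Fabp5 passed whichever of the 6 libraries was left out, while Cd63, Cd9 and Anxa5 did not, with highest limma adjusted p-values of 0.108, 0.0847 and 0.104. Spp1, the secreted protein osteopontin, is also on the list of bile duct cell markers, as the 1 gene of that list that was tested. It was at 48.9, 73.1 and 109 FPKM and at 44.8, 59.0 and 43.8 FPKM (-0.58 ± 0.26, limma adjusted p = 0.164).

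None of 7 tested monocyte and inflammatory genes passed, of 16 listed, nor of 3 tested of 8 alternative activation genes, nor of 7 tested of 8 genes that sense lipopolysaccharide. No monocyte and inflammatory gene and no lipopolysaccharide-sensing gene had an unadjusted p under 0.05, and of the alternative activation genes Tgfb1 did. Ccl2 and Ly6c2 differed by -0.38 and 0.27 (limma adjusted p = 0.478 and 0.542), and Ly96 and Tirap, partners of the lipopolysaccharide receptor, by -0.31 and 0.12 (limma adjusted p = 0.288 and 0.598). Tgfb1, which encodes a growth factor made by macrophages and other cells, was at 2.43, 3.59 and 2.72 FPKM with HFD and at 1.85, 1.70 and 1.74 FPKM with BT, just outside the threshold (-0.49 ± 0.14, limma adjusted p = 0.0511). With the length and GC trend removed Tgfb1 passed (-0.52, limma adjusted p = 0.0472). With 1 library left out its limma adjusted p was 0.0434 to 0.144. Mrc1, the mannose receptor, which liver endothelial cells also carry, differed by 0.10 (limma adjusted p = 0.694). Of 8 tested liver endothelial cell markers none passed (unadjusted p under 0.05 in 0, median -0.01), with Clec4g listed at 0 in all 6 libraries. Of 7 tested stellate cell markers 1 fell and none rose, the collagen gene Col3a1 (-1.36 ± 0.34, limma adjusted p = 0.0354), beside 7.33% of all genes lower. The call was lost with 1 library left out (limma adjusted p up to 0.121). The median of the list was -0.41, and Lrat was listed at 0 in all 6 libraries. Without the length and GC trend 4 of the 7 passed, all negative: Col3a1, Dcn, Reln and Pdgfrb (limma adjusted p = 0.0313 to 0.0454). In that setting 949 of 10403 genes tested passed, 550 of them lower. Of the remaining marker lists, limma called none of 3 tested neutrophil, 2 B cell, 2 dendritic cell, 5 red blood cell, 1 bile duct cell and 1 fat cell genes, and Ttr alone of 8 hepatocyte genes. At an unadjusted p under 0.05 these lists held 0, 1, 0, 0, 0, 0 and 3 genes, and no T or NK cell marker was high enough to be tested. The genes with the smallest p in lists without a call were Kdr and Stab2 of the endothelial cells (limma adjusted p = 0.259 and 0.284), Csf3r and S100a9 of the neutrophils (0.259 and 0.925), Ighm and Cd79b of the B cells (0.123 and 0.438) and Zbtb46 and Clec9a of the dendritic cells (0.368 and 0.450). For red blood cells they were Hba-a2 and Hba-a1 (limma adjusted p = 0.450 and 0.474), and for fat cells Cfd (0.359). The bile duct cell gene tested was Spp1, the same gene as among those of lipid-associated macrophages (limma adjusted p = 0.164).

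The sign of a gene's change went with the length of its transcript. Of the 14 tested genes whose longest annotated transcript is under 2000 bases 11 had a negative change and the median was -0.14. Of the 12 longer ones 9 had a positive change and the median was 0.28. Spearman's rho between change and length was 0.60 over the 26 genes, which share the same 6 libraries, and 0.45 over 10403 tested genes with an annotated transcript. Over those genes the medians were -0.19 for the shorter and 0.13 for the longer transcripts. With each library's trend on length and GC content removed, rho over the 26 genes was 0.14 and the medians were 0.12 and 0.20. The median of all 26 was then 0.15, beside 0.01 for all genes, and Ccl9 (0.48, limma adjusted p = 0.0305) and Cd5l passed. Over all genes 949 of 10403 passed in that setting. The resident and recruited medians were then 0.26 and -0.40, but single genes moved: Lgals3 from -0.39 to -0.17, Mmp12 from -0.45 to -0.63, Vsig4 from 0.09 to 0.25 and Cd163 from 0.26 to 0.12.

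**Figure D5:**
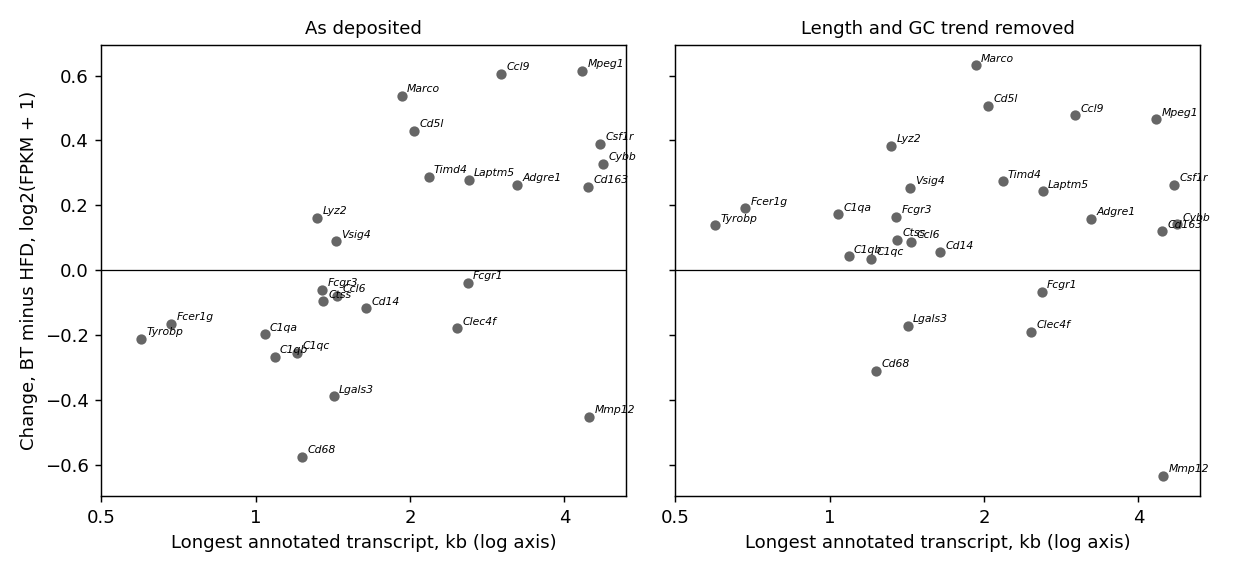
Change of the 26 tested genes (vertical axis, BT minus HFD, log2(FPKM + 1)) against the length of the longest annotated transcript (horizontal log axis, kb), as deposited on the left and without the per-library length and GC trend on the right. On the left short transcripts such as Tyrobp, Fcer1g and the C1q chains lie below 0 and most long ones above; on the right those short ones lie above 0 and Mmp12 is the lowest.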

How the data were processed

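Per the labels' protocols, TruSeq libraries of liver mRNA were sequenced, and the authors deposited FPKM values for 23474 Ensembl genes. Tools listed in the submitters' processing notes are Cufflinks 2.1.1, STAR 2.4.0 and CASAVA 1.8.2; build, annotation and strand setting were not given in the sources used here. Symbols, positions, lengths and GC content came from GENCODE M21 (GRCm38), which named 22671 genes. A listed 0 can be a failed estimate: Alb is at 0 in HFD replicate 3. limma 3.58.1 (R 4.3.3; eBayes with trend, two-sided) was run on log2(FPKM + 1) and checked on simulated data. An exact permutation test of 3 against 3 cannot go below 0.1, so none is given. All 31 genes are named; of 16 further lists, those past the threshold and otherwise the 2 with the smallest p, plus a few chosen after their values were seen. Genes and lists were chosen with earlier results of these data known. The 18 alternatives changed pseudocount, filter, scaling, variance model, array weights, replicate block or the length and GC trend (splines, 5 degrees of freedom), or left out a library.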

Additional observations from a re-analysis of the deposited data

How the results depend on the processing

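The count of the 26 genes past the threshold was 1. It was 0 with no filter (31 tested) and 2 with a filter of 5 FPKM (16 tested). It was also 2 with rescaling to the same sum (TPM), with quantile normalization, with robust variances and after removal of the length and GC trend. With a replicate block and that trend removed it was 3, where Mmp12 joined Ccl9 and Cd5l. Leaving out 1 library gave 0 to 2, with 0 without HFD replicate 2 and without each BT replicate. Over all genes the count was 1398 of 10476, 545 of 17095 with no filter and 1368 of 6799 with a filter of 5 FPKM. It was 1158 of 10795 with TPM, 1570 with quantile normalization and 1482 with robust variances. After removal of the length and GC trend it was 949 of 10403, or 973 with a replicate block as well. With 1 library left out it was 173 to 1536: 173, 324 and 589 without BT replicates 1, 2 and 3 and 621 without HFD replicate 2. The median of the resident markers was 0.42 with a pseudocount of 0.1 and 0.0886 with a filter of 5 FPKM, and 0.19 to 0.30 with 1 library left out. The median of the recruited markers stayed between -0.74 and -0.14 with 1 library left out and was -0.63 with a pseudocount of 0.1.

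A changed sign was seen in at least 1 setting for 12 of the 26 genes and not for the other 14, Ccl9 and Cd5l among the latter. With TPM, Fcgr1 was at 0.0075 and Fcgr3 at 0.0136. With the length and GC trend removed, with or without a replicate block, Cd14 was at 0.0556, C1qa at 0.17, C1qb at 0.0430, C1qc at 0.0348, Fcgr3 at 0.16, Fcer1g at 0.19, Tyrobp at 0.14, Ctss at 0.0947 and Ccl6 at 0.0883. The cause was not tested. With 1 library left out, the genes whose sign changed ranged as follows: Vsig4 -0.0925 to 0.20, Cd14 -0.43 to 0.0950, Fcgr1 -0.15 to 0.11, Fcgr3 -0.20 to 0.0510, Tyrobp -0.53 to 0.0265, Lyz2 -0.15 to 0.45, Ctss -0.35 to 0.13, Ccl6 -0.33 to 0.18.

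With a replicate block, Ccl9 was the gene past the threshold among the 26 (limma adjusted p = 0.0131), and 1808 genes passed in all. Cd5l missed there, at a limma adjusted p of 0.0540. Mmp12 was lower with BT in each same-numbered pair of libraries, and its adjusted p by limma was 0.0567 with the block and 0.0373 with the block and the length and GC trend removed (-0.45 and -0.63). Same-numbered libraries of the diets had correlations of 0.163, 0.0972 and 0.147 between their deviations from the group means, and every library correlated best with its own number. This is a hint from the data, since the labels share only a number. Array weights, the fit without a variance trend and median-of-ratios scaling kept the count at 1. Low genes such as Lyz1, Gpnmb, Itgam and Itgax rest on few fragments and a difference there may not be detectable at this depth.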

Other observations

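Of the 4 fat cell genes, 3 were highest in HFD replicate 1: Adipoq, the adiponectin gene, at 1.40 FPKM beside 0 to 0.198 FPKM in the other 5 libraries, Lep, the leptin gene, at 0.723 FPKM and Plin1, a lipid droplet coat gene, at 0.399 FPKM, both listed at 0 in the others. Cfd, the adipsin gene, did not follow them, at 193 FPKM in HFD replicate 1, 218 FPKM in BT replicate 1 and 54.7 to 183 FPKM in the other libraries. Nos2, the inducible nitric oxide synthase of activated macrophages, was at 0.667 FPKM in BT replicate 3 and at 0 to 0.0144 FPKM elsewhere. Cd74, the invariant chain of antigen presentation, was at 128 FPKM in BT replicate 3 and at 32.6 to 65.7 FPKM in the other libraries. The haemoglobin gene Hba-a1 was lowest in BT replicate 3, at 29.3 FPKM, beside 56.1 to 120 FPKM elsewhere.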
